A study of Drosophila melanogaster with 6 samples.

Results

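The genes described here are 10 genes of the fly cell death machinery and of p53: the inducers rpr, hid, grim and skl, the inhibitor Diap1, the caspases Dronc, Drice and Dcp-1, the apoptosome scaffold Dark, and p53. They were chosen by name, with earlier results of these data known. All 10 were found by FlyBase identifier among the 14150 genes of the deposited count table. The RNA came from dissected brains of Drosophila melanogaster, all from female larvae kept at 29 °C and taken as late L3 at 96 h after eggs were laid. All larvae carried worniu-gal4, a driver active in neuroblasts (the stem cells of the fly nervous system), on a w background. The ctrl group carried UAS-gfp-i, an RNAi transgene against a gene that flies lack, and the CIN group carried UAS-bub3-i, against the spindle checkpoint gene Bub3, whose loss gives chromosomal instability. There were 3 libraries per group, numbered by batch as 4, 5 and 6 and collected on different days, and each library pooled 3 brains. The knockdown was driven in neuroblasts while whole brains were sequenced, so RNA of neurons and glia is part of every value.

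In flies, cell death is held in check by Diap1, an inhibitor of apoptosis protein (IAP) and ubiquitin ligase that binds caspases and blocks them. The proteins of rpr, hid, grim and skl bind Diap1 and free the caspases, and are therefore called IAP antagonists. Freed Dronc, the initiator caspase, assembles on Dark, the fly Apaf-1, and cleaves the effector caspases Drice and Dcp-1, which take the cell apart. The transcription factor p53 switches on rpr, hid and skl after DNA damage. In the larval nervous system, death controlled by these inducers removes neuroblasts of the abdominal segments. The caspases are made as inactive precursors, so their mRNA is a measure of supply and not of activity.

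The libraries held 24668180 to 26292208 counts, and 10074 genes passed the expression filter, all 10 genes of interest among them. Bub3 itself measured 123 to 149 CPM (counts scaled to a common library size after TMM scaling) in ctrl and 80.2 to 96.5 CPM in CIN. Its log2 fold change was -0.63 ± 0.13 (SE), which edgeR did not call (adjusted p = 0.333) and DESeq2 did (adjusted p = 0.00364). The brain markers were present, as the 8 neuroblast markers summed to 574 to 804 CPM in ctrl libraries, against 342 to 536 CPM in CIN, and the 10 neuron markers to 3693 to 4279 CPM and 3022 to 3835 CPM. The 4 markers of newborn neurons and ganglion mother cells summed to 4499 to 5178 CPM in ctrl libraries, against 1028 to 1870 CPM in CIN. In ctrl, nearly all of that sum was pros, the gene of the transcription factor Prospero, at 4160 to 4808 CPM. In CIN, pros measured 759 to 1299 CPM and made up less of the sum. Most of the rest was nerfin-1, at 268 to 349 CPM in ctrl and 252 to 516 CPM in CIN. The log2 fold change of pros was -2.19 ± 0.22 (SE; edgeR, adjusted p = 0.0422, and 0.162 with the batch as a block), while nerfin-1 had 0.36 ± 0.26 (SE). The call of pros was lost on leaving out any 1 library except CIN 5, with adjusted p up to 0.33 and log2 fold changes of -2.44 to -2.03. Markers of tissue that adheres to the brain varied between libraries: the 7 ring gland markers in the table reached just 41.1 CPM (ctrl 4) and 46.8 CPM (CIN 5) in a pair of libraries, and 1139 to 3650 CPM in the other 4 libraries. The 6 fat body markers summed to 486 CPM in ctrl 4 and to 18.2 to 93.3 CPM in the other 5. The 7 hemocyte markers summed to 527 to 1173 CPM in ctrl libraries, against 314 to 1565 CPM in CIN. In whole brains, fewer cells of a type and less RNA per cell cannot be told apart.

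The inhibitor was by far the most abundant transcript of the set, and the inducers lay below the caspases that they release. To compare genes, levels are given as CPM per kilobase of annotated exon, over all 6 libraries. Diap1 stood at 127 ± 18.7 CPM per kb (SD, n = 6), 3.63-fold above the next gene, with no overlap of their ranges. The 3 caspases followed, with Drice at 35.0 ± 2.64, Dronc at 27.6 ± 7.65 and Dcp-1 at 27.2 ± 4.68 CPM per kb. Dronc lay above Dcp-1 in 3 of 6 libraries, and Drice above Dronc in 5 of 6, so these neighbours do not differ beyond their spread. The inducers skl and rpr came next, at 15.8 ± 4.71 and 14.3 ± 2.55 CPM per kb, again with overlapping ranges. p53, hid and Dark measured 5.73 ± 0.607, 5.26 ± 2.20 and 3.25 ± 0.760 CPM per kb, and the ranges of neighbours overlapped. The lowest was grim, at 1.08 ± 0.334 CPM per kb, 117-fold below Diap1 and below Dark in all 6 libraries. The order was nearly the same in both genotypes: skl and rpr, p53 and hid, and Dronc and Dcp-1 stood in opposite order in ctrl and CIN.

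**Figure D1:**
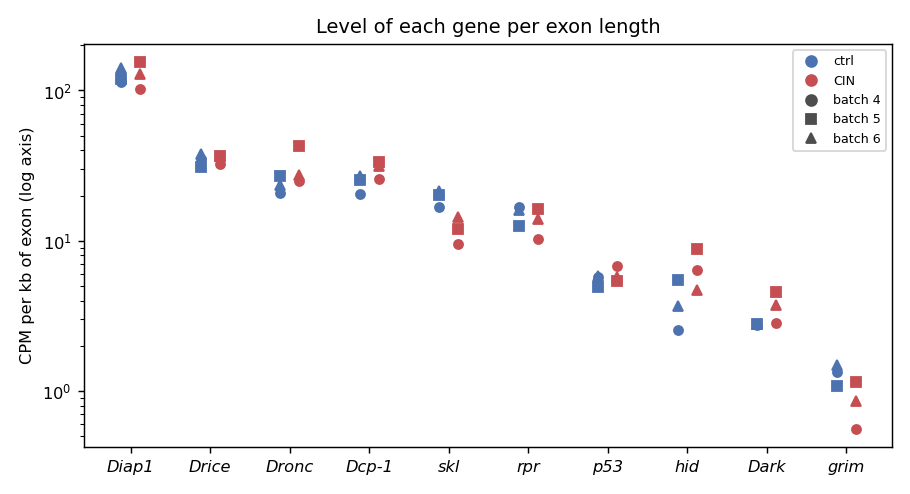
Level of each of the 10 genes in CPM per kb of exon on a log axis, with genes ordered by their mean over 6 libraries, ctrl in blue, CIN in red and batches 4, 5 and 6 as circles, squares and triangles. Diap1 lies between 103 and 154 CPM per kb, above all other genes, and grim between 0.563 and 1.49.

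The 4 inducers lie together on the left arm of chromosome 3 in the order hid (3L:18167745-18185641), grim (3L:18302719-18304417), rpr (3L:18397535-18398435) and skl (3L:18438561-18439942), in dm6 coordinates. They span 272.2 kb on the minus strand, with 6 other genes of the table between hid and grim and none between grim, rpr and skl. The genes rpr, grim and skl have a single exon block each, and hid has 4. Diap1 (3L:16038410-16051034) and Dronc (3L:9968479-9971002) are on the same arm. Drice (3R:29799658-29801584) and p53 (3R:23049657-23054082) are on the right arm of chromosome 3, and Dark (2R:17020027-17026703) and Dcp-1 (2R:23551313-23553547) on that of chromosome 2. The library kit does not mark strand, so reads in exons shared with an overlapping gene cannot be assigned. As annotated, 24.1% of the exon length of grim, 43.1% of that of Dark and 62.0% of that of p53 is free of other annotated genes, against 86.3% for Dcp-1, 89.0% for Diap1 and 100% for the other 5. Per kilobase of unshared exon, grim, Dark and p53 would stand at 4.49, 7.55 and 9.25 CPM per kb, which raises these levels but leaves grim last and p53 the seventh, and moves Dark above hid. The overlapping genes of Dark and p53 have rows of their own in the count table, whereas those of grim have none in the table used here, so for grim the counts do not show a gene that could have taken shared reads.

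Among the inducers, skl was lower in every CIN library than in every ctrl library. It measured 23.3, 28.1 and 29.8 CPM in the ctrl libraries of batches 4, 5 and 6, against 13.1, 16.6 and 19.96 CPM in their CIN partners. The groups did not overlap, and the lowest value was that of CIN 4. The means of 27.1 ± 3.39 and 16.6 ± 3.43 CPM (SD, n = 3) differ 1.63-fold. Its log2 fold change was -0.71 ± 0.19 (SE), with a 95% interval of 0.446- to 0.841-fold, and it missed the threshold of 0.05 in the quasi-likelihood test of edgeR after Benjamini-Hochberg adjustment (adjusted p = 0.499). The gene, also called sickle, encodes a short protein that binds IAPs. The batches gave log2 differences of -0.83, -0.76 and -0.58, and leaving out any 1 library gave log2 fold changes from -0.88 to -0.57. DESeq2 gave skl an adjusted p of 0.117, and over all other settings its adjusted p ran from 0.117 to 0.858. The values of pros and tap were also lower in every CIN library than in every ctrl library. Those of nerfin-1 and Hey, of the same marker list, overlapped between the groups. The 8 neuroblast markers summed to 574 to 804 CPM in ctrl and 342 to 536 CPM in CIN, without overlap, while the neuron sums overlapped. The part of cell composition in the skl values was not tested.

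The inducer hid stood on the other side. It measured 10.2, 22.0 and 14.8 CPM in the ctrl libraries of batches 4, 5 and 6, against 25.6, 35.4 and 18.8 CPM in their CIN partners. CIN was higher in each batch, by 2.51-, 1.61- and 1.27-fold, but the groups overlapped, since CIN 6 lay below ctrl 5. The log2 fold change was 0.76 ± 0.34 (SE), a 95% interval of 0.977- to 2.94-fold, and did not pass edgeR's test (adjusted p = 0.635). The hid protein is the inducer that growth factor signalling through MAPK is known to inhibit. Leaving out 1 library gave log2 fold changes of hid from 0.50 without CIN 5 to 1.08 without ctrl 5. Without both ctrl 4 and CIN 5, the libraries with few ring gland transcripts, the value was 0.26. These were also the lowest and the highest library of hid, so leaving out both lowers the change. The part of carried tissue in the hid values was not tested.

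The remaining inducers, rpr and grim, had no direction common to the batches. The founding gene of the family, rpr (reaper), measured 15.1, 11.2 and 14.5 CPM in the ctrl libraries of batches 4, 5 and 6, against 9.25, 14.6 and 12.5 CPM in their CIN partners. CIN was lower in batches 4 and 6 and higher in batch 5, and the log2 fold change was -0.17 ± 0.23 (SE; edgeR, adjusted p = 0.851), which ran from -0.32 without CIN 5 to -0.0083 without CIN 4. The 95% interval of 0.614- to 1.29-fold still leaves room for a moderate change either way. For grim, the ctrl libraries of batches 4, 5 and 6 held 57, 45 and 65 counts and their CIN partners 24, 49 and 40, which makes it the least precise of the set. These are 2.29, 1.83 and 2.53 CPM against 0.957, 1.94 and 1.47 CPM, with overlap of CIN 5 and ctrl 5. The log2 fold change of grim was -0.61 ± 0.37 (SE; edgeR, adjusted p = 0.709), a 95% interval of 0.358- to 1.21-fold. It ran from -0.87 without CIN 5 to -0.38 without CIN 4. Both rpr and grim, like skl, were lowest in CIN 4, the library with the lowest sum of neuroblast markers (342 CPM), and the part of that in these values was not tested.

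**Figure D2:**
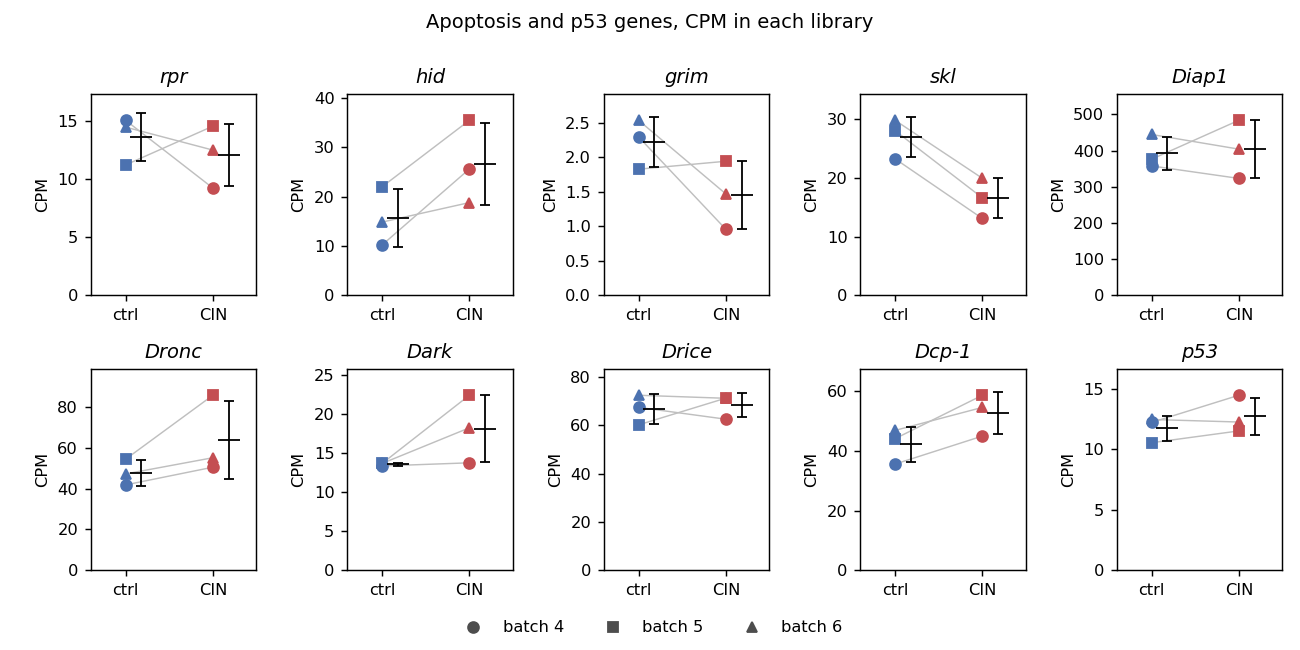
CPM of the 10 genes in each library, on linear axes from 0, with a grey line joining the ctrl and CIN library of a batch and black bars for the mean and SD of 3 libraries. The 3 CIN libraries of skl lie at 13.1 to 19.96 CPM, below the 23.3 to 29.8 CPM of ctrl, while hid is higher in CIN in each batch and its groups overlap.

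The mean level of the inhibitor Diap1 differed by less than the spread between libraries. It measured 358, 376 and 445 CPM in the ctrl libraries of batches 4, 5 and 6, against 323, 484 and 404 CPM in their CIN partners. The CIN libraries hold both its lowest and its highest value. The means were 393 ± 45.8 and 404 ± 80.3 CPM (SD, n = 3), and the log2 fold change was 0.04 ± 0.18 (SE; edgeR, adjusted p = 0.969). The 95% interval of 0.765- to 1.38-fold sets the size of change that these libraries could have missed. With 8113 to 12221 counts per library, counting error is small beside the spread between pools of brains.

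The initiator Dronc and its scaffold Dark were both higher in CIN in each batch, and CIN 5 held the highest value of each. Dronc measured 41.8, 54.3 and 47.1 CPM in the ctrl libraries of batches 4, 5 and 6, against 50.4, 85.6 and 55.1 CPM in their CIN partners. CIN 5 stood apart, and the value of CIN 4 lay below that of ctrl 5. The log2 fold change of Dronc was 0.42 ± 0.22 (SE; edgeR, adjusted p = 0.686), and ran from 0.14 without CIN 5 to 0.56 without CIN 4. Dark was even across ctrl, with 13.4, 13.7 and 13.7 CPM in batches 4, 5 and 6, and measured 13.8, 22.5 and 18.3 CPM in CIN. Its groups did not overlap, though CIN 4 exceeded the highest ctrl library by less than the ctrl SD of 0.187 CPM. The log2 fold change of Dark was 0.42 ± 0.20 (SE; edgeR, adjusted p = 0.666), and ran from 0.23 without CIN 5 to 0.58 without CIN 4. Without both ctrl 4 and CIN 5, the lowest and the highest library of both genes, Dronc and Dark had log2 fold changes of 0.05 and 0.22.

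The effector caspases differed from each other in their pattern. Drice, the main executioner in most fly tissues, measured 67.3, 60.1 and 72.3 CPM in the ctrl libraries of batches 4, 5 and 6, against 62.4, 71.1 and 71.1 CPM in their CIN partners. Its groups overlapped widely, and the log2 fold change of 0.03 ± 0.12 (SE; edgeR, adjusted p = 0.955) had the narrowest 95% interval of the set, 0.844- to 1.24-fold. Dcp-1, its close relative, measured 35.6, 44.1 and 46.9 CPM in the ctrl libraries of batches 4, 5 and 6, against 45.0, 58.7 and 54.6 CPM in their CIN partners. CIN was higher in each batch, by 1.26-, 1.33- and 1.16-fold, although CIN 4 lay below ctrl 6. The log2 fold change of Dcp-1 was 0.32 ± 0.16 (SE; edgeR, adjusted p = 0.666), and ran from 0.21 without ctrl 4 to 0.42 without CIN 4. Without both ctrl 4 and CIN 5, its lowest and highest libraries, it was 0.13. Dcp-1 shares 239 bp of exon with pita on the opposite strand, a zinc finger gene of similar abundance with a log2 fold change of -0.19 ± 0.15 (SE; edgeR, adjusted p = 0.769).

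The mean level of p53 mRNA also differed by less than the spread between libraries. It measured 12.2, 10.5 and 12.5 CPM in the ctrl libraries of batches 4, 5 and 6, against 14.5, 11.5 and 12.3 CPM in their CIN partners. The groups overlapped, and the batches differed in sign. The log2 fold change was 0.12 ± 0.17 (SE; edgeR, adjusted p = 0.865), with a 95% interval of 0.815- to 1.45-fold. An antisense gene, asRNA:CR46089, covers 812 bp of p53 exon, and was chosen for mention by this overlap. The ctrl libraries of batches 4, 5 and 6 held 11, 6 and 8 counts of it and their CIN partners 28, 22 and 29, so its groups did not overlap. Its log2 fold change was 1.60 ± 0.41 (SE; edgeR, adjusted p = 0.480) on these few counts, and without strand a read in the shared exons could come from either gene.

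Across the set, 0 of 10 genes passed the edgeR test at an adjusted p of 0.05, against 0.0993% of all tested genes. DESeq2 also called 0 of 10, against 1.07% of the genes it adjusted. At an unadjusted p under 0.05, 1 of 10 was lower, skl, against 3.76% of all genes, and 0 were higher, against 4.13%. The batch as a replicate block raised the unadjusted count from 1 to 4 (hid, Dronc and Dcp-1 higher, skl lower; 8.68% of all genes in that fit, and 7.89% without the block), with edgeR adjusted p from 0.386 to 0.559 for these 4 and 0% of all genes called. In all 3 batches, 4 of 10 genes were higher in CIN (hid, Dronc, Dark and Dcp-1), against 17.5% of all genes, and 1 was lower (skl), against 18.5%. Without overlap of the groups, 1 was higher (Dark), against 7.1% of all genes, and 1 lower (skl), against 8.18%. The median log2 fold change of the 10 was 0.08, beside 0.01 over all tested genes. Of all genes at an unadjusted p under 0.05, 52.3% were higher in CIN, and 65.4% without TMM scaling.

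**Figure D3:**
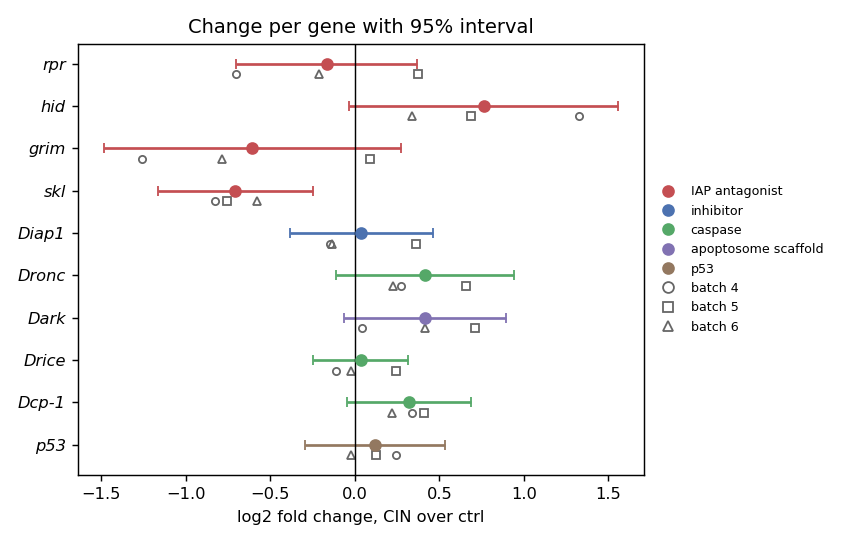
Log2 fold change of CIN over ctrl for each gene (filled circles, coloured by role) with its 95% interval, and open symbols for the log2 difference within batches 4, 5 and 6. The interval of skl, from -1.16 to -0.25, is the one that leaves out 0 before adjustment, and that of hid runs from -0.03 to 1.56.

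Set against the caspases and the inhibitor, the inducers summed per kb of exon made up a smaller share in CIN. The 4 inducers summed to 37.5, 39.3 and 42.9 CPM per kb in ctrl 4, 5 and 6, and 26.7, 38.2 and 33.9 CPM per kb in CIN 4, 5 and 6. The sum of Dronc, Drice and Dcp-1 was 76.03, 83.4 and 87.7 CPM per kb in ctrl and 83.1, 113 and 95.4 CPM per kb in CIN. The ratio of inducers to caspases was therefore 0.493, 0.472 and 0.489 for the ctrl libraries of batches 4, 5 and 6, compared with 0.321, 0.338 and 0.355 for CIN. The log2 ratio was -1.05 ± 0.03 in ctrl and -1.57 ± 0.07 in CIN (SD, n = 3), a difference of -0.52, and the batches gave -0.62, -0.48 and -0.46. The groups did not overlap. No test was made of this ratio, since its genes were chosen with results of these data known. The part of cell composition in it was not tested either. Of the newborn neuron and ganglion mother cell markers, pros and tap were lower in CIN without overlap, and nerfin-1 and Hey overlapped. The sum of the neuroblast markers was also lower in CIN without overlap, and that of the neuron markers overlapped.

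Summed per kb, the ratio of inducers to Diap1 was lower in CIN as well, by less. It was 0.329, 0.328 and 0.303 for the ctrl libraries of batches 4, 5 and 6, compared with 0.259, 0.248 and 0.263 for CIN, a log2 difference of -0.32. Both ratios weight short genes, so the single-exon genes skl and rpr carry them. In ctrl, skl made up 45.0% to 51.6% of the inducer sum per kb and hid 6.78% to 13.9%, whereas in CIN skl made up 31.5% to 42.6% and hid 13.8% to 23.9%. With summed CPM in place of CPM per kb, where the long hid transcript weighs more, the log2 differences were -0.28 against the caspases and -0.08 against Diap1. The difference against Diap1 thus depended on the weighting by length. Taken singly over Diap1, hid and skl had log2 differences of 0.76 and -0.75, so they went opposite ways. The inducers with the highest and the lowest log2 fold change, hid and skl, were also set against each other. The value of hid over skl, as a ratio of CPM, was 0.439, 0.783 and 0.497 for the ctrl libraries of batches 4, 5 and 6, compared with 1.95, 2.13 and 0.941 for CIN. The lowest hid to skl ratio of CIN lay above the highest of ctrl. That order was largely built into the choice of the pair by fold change, and skl alone already kept the groups apart. Over rpr, hid stood at 0.677, 1.96 and 1.02 in ctrl against 2.77, 2.43 and 1.50 in CIN, and the groups overlapped, with CIN 6 below ctrl 5.

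**Figure D4:**
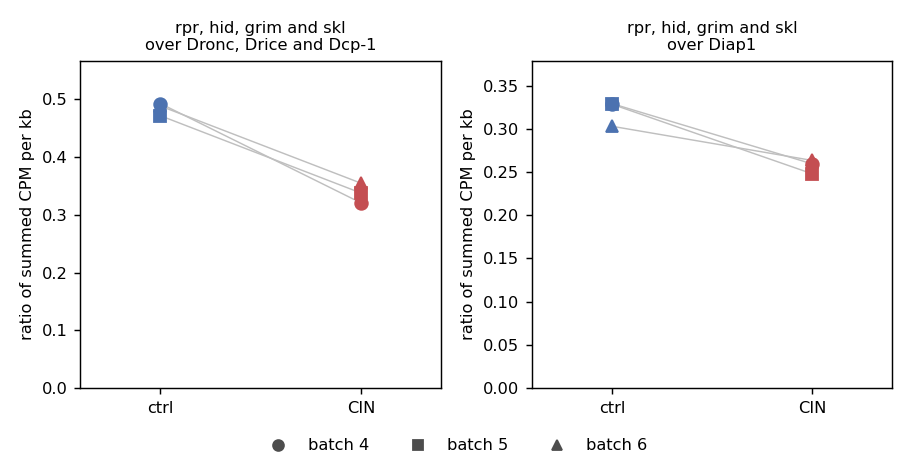
Ratio of the summed CPM per kb of rpr, hid, grim and skl to that of Dronc, Drice and Dcp-1 (left) and to that of Diap1 (right) in each library, with grey lines joining the libraries of a batch. Left, ctrl lies at 0.472 to 0.493 and CIN at 0.321 to 0.355, and right, ctrl at 0.303 to 0.329 and CIN at 0.248 to 0.263.

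The extremes of the 10 genes are given here by library. CIN 5 had the highest value of hid, Diap1, Dronc, Dark and Dcp-1, and ctrl 4 the lowest of hid, Dronc, Dark and Dcp-1. These are the libraries with 46.8 and 41.1 CPM of ring gland markers. Both genotypes thus hold 1 library of low ring gland signal, at opposite ends for hid, Dronc, Dark and Dcp-1. The library ctrl 4 is also the one with 486 CPM of fat body markers. CIN 4, with 3650 CPM of ring gland markers, was lowest for rpr, grim, skl and Diap1, and ctrl 6 was highest for grim, skl and Drice. How often each library is the extreme over all genes was not counted, so these orders describe the 10 genes only. The part of carried tissue in these orders was not tested.

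The wider death pathway was described with 11 lists of genes chosen by name, which hold 54 genes besides the 10. Of these, 52 were tested, and 0 passed edgeR's test over all genes, while 4 higher and 1 lower had an unadjusted p under 0.05, against 4.13% and 3.76% of all genes, and DESeq2 called 1, against 1.07%. Their median log2 fold change was 0.16, beside 0.01 for all tested genes, and 38 of 52 (73.1%) were positive, against 51.3% of all genes. In all 3 batches, 27 of 52 (51.9%) were higher in CIN, against 17.5% of all genes, and 2 (3.85%) were lower, against 18.5%. The batch medians of the 52 were 0.10, 0.23 and 0.09 in batches 4, 5 and 6. The lists were chosen with earlier results of these data known. They are also short and their genes share libraries, so these shares describe the lists and nothing more.

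The gene called by DESeq2 was Traf4, an adaptor between the fly TNF receptors and the JNK kinases, given here after its values were seen. It measured 52.4, 57.1 and 61.6 CPM in the ctrl libraries of batches 4, 5 and 6, against 74.02, 91.2 and 89.2 CPM in their CIN partners, and the groups did not overlap. Its log2 fold change was 0.57 ± 0.13 (SE; edgeR, adjusted p = 0.393; DESeq2, adjusted p = 0.0188). In the TNF and JNK list, 8 of 10 members were positive, with a median of 0.17. Its most abundant members, the JNK gene bsk and the JNK kinase gene hep, stood at -0.03 ± 0.22 and 0.13 ± 0.12 (SE) in log2 fold change. The ligand gene egr measured 93.2 ± 7.15 CPM on average in ctrl against 106 ± 20.2 CPM in CIN (SD, n = 3).

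Genes known as p53 targets after irradiation showed no common direction. Of 9 genes, rpr, hid and skl among them, 6 were positive and 3 negative, with a median log2 fold change of 0.10 and 0 called by edgeR. Xrp1, a stress-induced transcription factor, had 0.15 ± 0.15 (SE) and egr 0.18 ± 0.16. Corp, a p53 target that restrains p53, measured 6.56 ± 1.70 CPM on average in ctrl against 7.03 ± 1.62 CPM in CIN (SD, n = 3). In the list of p53 and its regulators, 4 of 8 were positive and the extremes were -0.05 and 0.12, the narrowest span of the 11 lists. Usp7, a deubiquitinase, and grp, the Chk1 kinase gene, were its most abundant members, at -0.02 ± 0.13 and -0.02 ± 0.14 (SE) in log2 fold change.

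All 7 caspase genes had a positive log2 fold change, with a median of 0.41, and 0 passed edgeR's test. Drice and Dredd were near 0, and Drice was negative without ctrl 5 and without CIN 6. Dredd and Decay also turned negative among the other settings, down to -0.04 and -0.75. Strica, a caspase with a long prodomain, was among them at 3.25 ± 0.458 CPM on average in ctrl against 5.31 ± 1.98 CPM in CIN (SD, n = 3). The value of Decay rested on 1 library, with 3.51 CPM in CIN 4 and 0.0779 to 0.643 CPM in the other 5. Dredd, the caspase of the immune response, had a log2 fold change of 0.02 ± 0.12 (SE). Of the Bcl-2 genes, Buffy, given after its values were seen, measured 3.70 ± 0.422 CPM on average in ctrl against 5.84 ± 1.16 CPM in CIN, with no overlap (edgeR, adjusted p = 0.610). Debcl, a pro-death member, had a log2 fold change of 0.25 ± 0.38 (SE), which was -0.28 without CIN 4, and its batches differed in sign.

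The other inhibitors gave no uniform picture. Of the 4 IAPs, Bruce, a very large ubiquitin conjugase, had a log2 fold change of 0.14 ± 0.13 (SE). Det (deterin), the fly survivin and a subunit of the mitotic passenger complex, measured 31.3 ± 2.96 CPM on average in ctrl against 23.1 ± 3.01 CPM in CIN (SD, n = 3), without overlap of the groups. It was given after its values were seen and did not pass (edgeR, adjusted p = 0.603). Among genes that control Diap1, eff, a ubiquitin-conjugating enzyme, had 0.18 ± 0.23 (SE). The list median was 0.26 with 4 of 5 positive.

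Downstream lists were also mostly positive without a call. In the engulfment list, 7 of 8 tested genes were positive with a median of 0.30. The receptor crq, given after its values were seen, measured 65.02 ± 1.98 CPM on average in ctrl against 86.0 ± 10.8 CPM in CIN (SD, n = 3; edgeR, adjusted p = 0.578). The abundant members Src42A, a Src kinase gene, and drpr, the engulfment receptor of glia, stood at 0.27 ± 0.16 and 0.24 ± 0.15 (SE) on the log2 fold scale. The glial markers summed to 1470 to 1603 CPM in ctrl libraries, against 1167 to 2076 CPM in CIN, and the hemocyte markers varied as given above. Their part in the engulfment values was not tested. Among nuclease factors, Drep2 and Drep1, relatives of the DNA fragmentation factor, had 0.00 ± 0.23 and 0.30 ± 0.22 (SE), in a list with a median of 0.26. Among mitochondrial factors, Cyt-c-p, the main cytochrome c, and eIF3m, a translation factor subunit that also promotes Dronc activation, had -0.02 ± 0.24 and -0.20 ± 0.15, in a list with a median of 0.06.

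**Figure D5:**
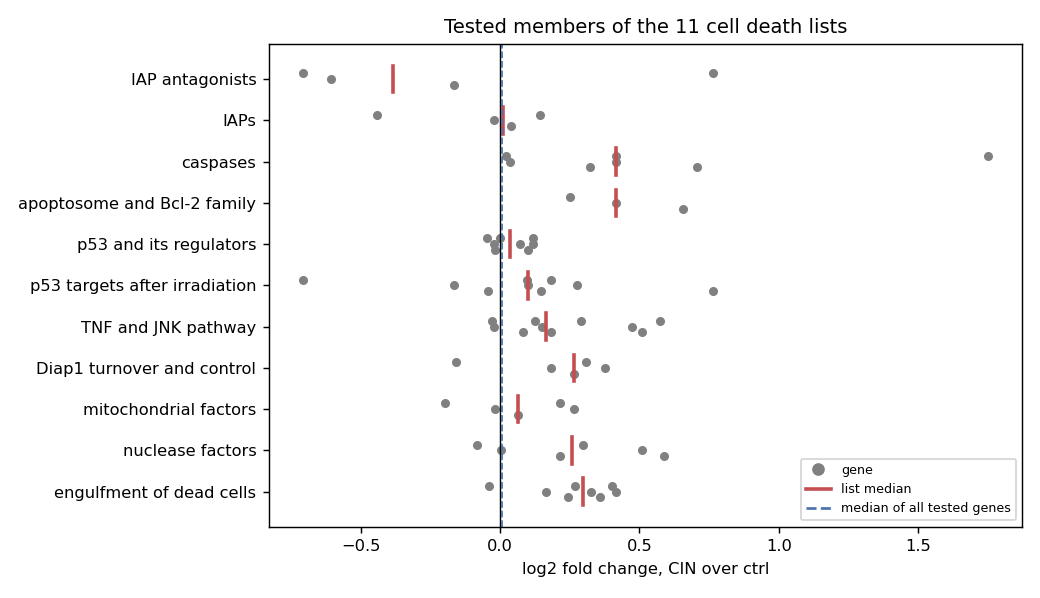
Log2 fold change of each tested gene (grey) in the 11 cell death lists, with the list median in red and the median of all tested genes, 0.01, as a dashed blue line. The IAP antagonist list has the lowest median, -0.39, with hid at 0.76 far from the other 3 genes, and the regulators of p53 cluster around 0.

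Genes whose values followed each inducer over the 6 libraries are given as a description. The measure was Pearson's r of log2 CPM, among about 7845 genes with a mean of at least 5 CPM. Those closest to hid were NijA (r = 0.999), which encodes Ninjurin A, a cell surface protein, then CrebA (r = 0.994), a transcription factor of secretory cells, and Gmppb (r = 0.990). Closest to skl were CG3817, La and MetRS (r = 0.993, 0.990 and 0.988), to rpr Pc, Sf3a1 and Pp1-87B (r = 0.989, 0.988 and 0.984), and to grim CG17724, Adf1 and Hpr1 (r = 0.992, 0.986 and 0.986). With 6 points, 117 genes exceeded an r of 0.9 with hid, 148 with skl, 95 with rpr and 78 with grim. The genes named are those with the highest r in each search, so their r is high by selection. NijA followed hid from 9.77, 15.7 and 12.7 CPM in ctrl 4, 5 and 6 to 17.7, 21.5 and 14.5 CPM in CIN 4, 5 and 6.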

How the data were processed

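The authors deposited raw counts, as whole numbers for each gene in each library, without normalization. Reads were processed with Trim Galore, STAR 2.7.10a and featureCounts on dm6, per the submitters' processing notes; their order, the settings and strand mode, and the gene annotation are not stated in these sources. Poly(A) RNA libraries were made with an unstranded NEBNext kit, per the labels' protocols. Symbols were matched by FlyBase identifier. Coordinates and exon lengths come from an Ensembl annotation of BDGP6, the assembly of dm6, counted from 1. Depth was 24668180 to 26292208 counts per library.

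Genotypes were compared over all genes with edgeR 4.0.16 (R 4.3.3): filterByExpr, TMM, and the quasi-likelihood test on genotype, two-sided, Benjamini-Hochberg over 10074 genes, threshold 0.05. SEs are the log2 fold change over the square root of F, and 95% intervals use the fit's degrees of freedom. With 3 libraries a group, an exact permutation test cannot go below 0.1, so none was run. The script was tested on simulated data. The p-values rest on the variation among pools of brains.

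Members and lists were chosen with earlier results of these data known. The text names all members, the most abundant 2 genes of each list where none was called, genes that overlap members, and the 3 genes most like each inducer. Batch numbers pair the libraries, since the labels give a batch and the design text different days. Deviations from group means correlated at 0.038, -0.062 and 0.175 across genes in batches 4, 5 and 6. Pairs of ctrl and CIN libraries from different batches gave -0.20 to 0.10, so libraries of a batch were hardly more alike than others. Alternatives were RLE factors, no TMM, other filters, DESeq2 1.42.0, limma-voom (limma 3.58.1), robust estimation, the block and left-out libraries. Unshared exon length was added after seeing the data. Marker lists gave sums per library, with no test of a list.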

Additional observations from a re-analysis of the deposited data

How the results depend on the processing

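The call of 0 of 10 genes held in all 15 other settings, with a lowest adjusted p of 0.117 (skl, DESeq2), and 8 of 10 genes kept their sign in each. The number of genes called over the whole table was 10, against 107 with DESeq2, 0 with the batch as a replicate block (874 at an unadjusted p under 0.05) and 1 to 3 without 1 library. The block changed no call of the 10 genes. Calls among all list genes went from 0 to 1 with DESeq2 (Traf4), and to 0 in the other 14 settings. Diap1 ran from -0.11 to 0.17 without 1 library and was -0.18 without both ctrl 4 and CIN 5. Drice ran from -0.035 to 0.099 without 1 library. The inducer to caspase difference of -0.52 was -0.28 with summed CPM and -0.44 with the mean of log2 CPM, and the inducer to Diap1 difference of -0.32 was -0.081 and -0.22. Signs of other log2 fold changes near 0 turned as well. Without TMM, Usp7, grp, bsk and Cyt-c-p were at 0.022, 0.024, 0.019 and 0.014. Without 1 library, Debcl ran from -0.28 to 0.46, Usp7 from -0.12 to 0.057, grp from -0.093 to 0.091, bsk from -0.22 to 0.15, eff from -0.037 to 0.35, Cyt-c-p from -0.18 to 0.22 and Drep2 from -0.16 to 0.23. Without both ctrl 4 and CIN 5, Cyt-c-p, Drep2, Drep1 and pita were at 0.24, -0.24, -0.018 and 0.013. Drep2 was at -0.041 with limma-voom and -0.040 with the block. The cause was not tested. DESeq2 called Bub3 (log2 fold change -0.63) and Traf4 (0.58), whereas edgeR called neither (adjusted p = 0.333 and 0.393). At 24 to 65 counts a library, grim limits what its comparison can show.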
